A study of Homo sapiens with 6 samples.

Results

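The activating transcription factor ATF4 and the genes it switches on when amino acids run short were followed through a stepwise transformation model made from human foreskin fibroblasts. The gene set lists 36 genes by their known place in the pathway. The choice of genes used none of these signals, although earlier results of these data were known when it was drawn up. Only the probe set of each gene was picked by its mean signal on these arrays. The set holds ATF4 and its partner factors, feedback and stress effectors, enzymes that make non-essential amino acids, amino acid transporters, and enzymes that charge or export tRNA. Of the 36 listed genes, 35 were measured among the 18417 genes tested. CBS, an enzyme of cysteine synthesis, could not be read on its own because its probe set also carries another gene symbol.

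Expression was measured on Affymetrix Gene 1.0 ST arrays, 2 for each of 3 cell lines, 6 in all. BJ are primary, untransformed foreskin fibroblasts. BJEL are BJ cells that carry the telomerase catalytic subunit hTERT together with the SV40 early region, which encodes the large T and small t antigens, and they were kept in G-418 and hygromycin. BJELM are BJEL cells that received MYC fused to an estrogen receptor domain from a retroviral vector, were kept in puromycin as well, and grew with 4-hydroxytamoxifen (4-OHT), which switches the fusion protein on. BJELM therefore differ from BJEL by the transgene, puromycin and 4-OHT at once, both lines share hTERT, the viral antigens and their selection drugs, and the effects of these parts cannot be told apart. All 3 lines shared the same basal medium with fetal calf serum, and the 2 arrays of a line are biological replicates per the study's methods. Neither labels nor methods say whether they came from separate cultures, so the p-values measure the spread between these arrays only.

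Signals are given on the log2 scale, on which 1 unit is a 2-fold difference, and levels of different genes are not set against each other. The median signal of the tested genes lay between 7.18 and 7.27 on the 6 arrays, and arrays of a line correlated with each other at 0.9925 to 0.9949 across genes, against 0.9431 to 0.9806 between lines. TERT, the introduced telomerase gene, read 7.77 and 7.88 in BJ, 10.71 and 10.97 in BJEL, and 10.84 and 10.78 on the arrays labelled BJELM. MYC read 9.47 and 9.61 in BJ, 10.22 and 10.12 in BJEL, and 9.57 and 8.90 on the arrays labelled BJELM, so the MYC signal was 0.93 ± 0.21 (SE) lower there than in BJEL, which goes against that label (log2 difference -0.93, limma adjusted p = 0.0444). The study's own list of transcription factors likewise gives MYC expression above BJ in BJEL and below BJ in BJELM. Whether the probe set reads the introduced MYC transcript is not given in the sources used here. The study reported overexpressed MYC-ER protein at the BJELM step by western blot and checked MYC expression by RT-qPCR. Those assays were not analysed here, and every result below on BJELM is a result on the arrays so labelled. Of 12 fibroblast markers, 7 were called lower in BJEL than in BJ (58.3%, beside 2.29% of all genes). On the arrays labelled BJELM 10 were (83.3%, beside 4.7%), while vimentin (VIM) stayed between 12.87 and 13.07 on all 6 arrays. Markers of epithelial, endothelial, leukocyte and melanocyte cells had mean signals of 4.44 to 7.23, except CD68, which is also made by fibroblasts and had means of 11.32, 11.36 and 10.28 in the 3 lines.

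ATF4 is the main transcriptional arm of the integrated stress response. When uncharged tRNA, misfolded protein in the endoplasmic reticulum, double-stranded RNA or haem shortage activates a kinase of the initiation factor eIF2, general translation falls while the ATF4 message is translated better, so ATF4 activity is set largely by translation and less by the amount of its mRNA. ATF4 protein then pairs with C/EBP family partners on C/EBP-ATF response elements and raises enzymes, transporters and tRNA ligases that restore amino acid supply, followed by feedback genes such as TRIB3 and CHAC1. Arrays measure RNA and give no reading of ATF4 protein.

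The element itself can be read in the promoters of the set. In RefSeq windows on GRCh38.p14 that run from 250 bases before to 50 bases after a start site, 30 of the 36 listed genes had at least 1 window. The sequence TGATGNAA, searched on both strands, was found in 10 of their 49 windows (20.4%) and in 3.62% of all 35116 windows of that length. Each of the 10 windows belonged to a different gene, and 7 of the 10 read TGATGCAA. The 10 matches are shown because they are the letters that ATF4 and its partners are known to favour. They were picked for printing after the matches were seen, and each is written along the strand of its gene with the element in capitals, which appears as its reverse complement where it lies on the opposite strand.
ASNS, asparagine synthetase (chr7:97872463-97872482, minus strand): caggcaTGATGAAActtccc
CHAC1 (chr15:40953256-40953275, plus strand): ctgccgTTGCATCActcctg
CEBPG (chr19:33374065-33374084, plus strand): ggcgtcTGATGCAAcctgcc
SLC1A4 (chr2:64989386-64989405, plus strand): tcccgtTTGCATCAtctcca
SLC1A5 (chr19:46784898-46784917, minus strand): agtggcTGATGCAAgctgtc
SLC3A2 (chr11:62881730-62881748, plus strand): gactccTTACATCAgctcc
AARS1 (chr16:70289680-70289699, minus strand): tcgcagTTGCATCAgccaag
GARS1 (chr7:30594839-30594858, plus strand): cggcgaTTTCATCAtgctcc
MARS1 (chr12:57488058-57488077, plus strand): ttccggTTGCATCAgcgagg
NARS1 (chr18:57621809-57621828, minus strand): gctctcTGATGCAAcgccgg

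In the ASNS window the element began 68 bases before the start site, and in that of SLC3A2 it began 38 bases after it. The E-box CACGTG, the letters that MYC is known to bind and that read the same on both strands, was in 5 member windows (10.2%) and in 7.26% of all windows. Those 5 windows belonged to 4 genes, ATF4 with 2 overlapping windows, ALDH18A1, SLC7A5 and SLC1A5. None of the 10 genes with TGATGNAA was called with all 6 arrays in the fit described below, although CHAC1 and SLC1A4 were under some alternatives, and of the 5 genes that were called in that fit, CTH, SLC6A9 and VLDLR had windows that held neither motif. ALDH1L2, NUPR1, PSPH, PYCR1, SHMT2 and SLC7A11 had no window. A match is a description of letters and not a measurement of binding.

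The question put to the arrays was whether the ATF4 genes changed as fibroblasts became immortalized (BJEL against BJ) and then transformed (BJELM against BJEL and against BJ). Most of the set moved little. A gene was called when limma's moderated test gave an adjusted p under 0.05 and the lines differed at least 2-fold. In BJEL against BJ, 0 of the 35 genes were called higher, against 2.89% of all genes, and 2 were called lower (5.71%), against 2.29% of all genes. On the arrays labelled BJELM against BJ, 1 was called higher (4.09% of all genes) and 4 lower, which is 11.4% of the set against 4.7% of all genes. On the arrays labelled BJELM against BJEL, 1 was called higher (0.923% of all genes) and 0 lower (1.76% of all genes). Of the 35 genes, 34 lay at or above the median signal of all genes. When only such genes were fitted, 2 of the 34 were called lower in BJEL against BJ, beside 3.13% of those genes. On the arrays labelled BJELM against BJ, 5 were then lower and 0 higher, beside 7.46% and 6.7%. At an unadjusted p under 0.05 with no minimum fold, limma counted 8, 17 and 9 genes in the 3 comparisons, in either direction. These are 22.9%, 48.6% and 25.7% of the set, beside 30.6%, 37.3% and 25.4% of all genes. A t-test for unequal variances with adjusted p called 0 of all 18417 genes in each, so its 0 for the set carries no information. Comparisons with BJ share its arrays, and those with BJELM share theirs. The median difference over the set was 0.10, 0.12 and -0.094, beside -0.017, 0.011 and 0.029 over all genes.

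**Figure D1:**
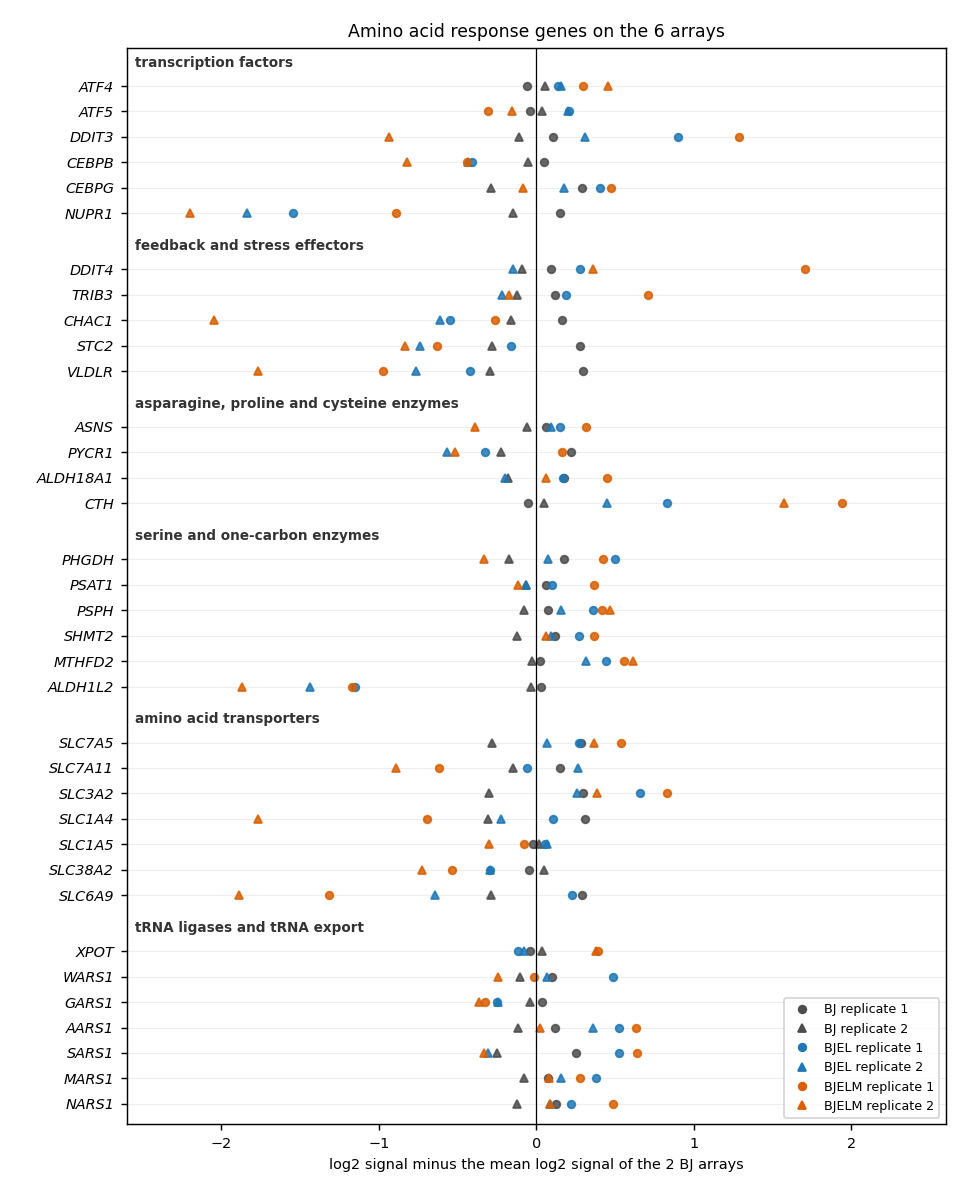
Signals of the 35 measured genes on each of the 6 arrays, as the log2 signal minus the mean of the 2 BJ arrays (x axis), grouped by role, with colour for the line as labelled and circles and triangles for replicates 1 and 2. CTH lies to the right on both arrays labelled BJELM and NUPR1 and ALDH1L2 lie to the left on the 4 arrays of both engineered lines, while most other genes stay within 1 unit of BJ.

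The transcription factors came first in the order of the pathway. ATF4 mRNA read 11.13 and 11.24 in BJ, 11.33 and 11.34 in BJEL, and 11.48 and 11.64 on the arrays labelled BJELM, so the 3 lines did not overlap. The step from BJ to the arrays labelled BJELM was 0.37 ± 0.10 (SE, 2 arrays per line, limma adjusted p = 0.0309), a rise well under 2-fold. BJEL against BJ gave 0.15 ± 0.10 and BJELM against BJEL gave 0.22 ± 0.10, and neither passed (limma adjusted p = 0.361 and 0.211). A second probe set of ATF4 gave 0.41 ± 0.39 and 0.28 ± 0.39 over BJ in the same 2 lines and -0.13 ± 0.39 between them, and passed in none.

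NUPR1, a small stress-induced chromatin protein that ATF4 raises, fell in both engineered lines. It read 10.66 and 10.36 in BJ, 8.97 and 8.68 in BJEL, and 9.62 and 8.31 on the arrays labelled BJELM, so every BJ array stood above the other 4. The difference was -1.69 ± 0.40 in BJEL against BJ (limma adjusted p = 0.0353) and -1.55 ± 0.40 on the arrays labelled BJELM against BJ (limma adjusted p = 0.0319). The call in BJEL was lost when any BJ or BJEL array was left out (-1.84 to -1.54, limma adjusted p up to 0.170). The call on the arrays labelled BJELM was kept only without BJELM replicate 1 (-2.20), and without BJELM replicate 2 the difference was -0.894. It also ended when BJEL was left out of the fit, and both calls ended when every probe set was tested.

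CEBPB, the C/EBP partner that ATF4 induces, was 9.58 and 9.48 in BJ, 9.12 and 9.09 in BJEL and 9.08 and 8.71 on the arrays labelled BJELM, a fall of 0.63 ± 0.14 from BJ that stayed under 2-fold (log2 difference -0.63, limma adjusted p = 0.0167). ATF5, a related stress factor, was 0.44 ± 0.091 lower on the arrays labelled BJELM than in BJEL (log2 difference -0.44, limma adjusted p = 0.0349). CEBPG, another partner and one of the genes with the element, read 8.47 and 7.89, 8.58 and 8.35, and 8.66 and 8.09 in the order BJ, BJEL and BJELM, and the 3 lines overlapped. DDIT3, which encodes the pro-apoptotic factor CHOP, had the widest spread of the set. It read 8.52 and 8.30 in BJ, 9.31 and 8.72 in BJEL, but 9.70 and 7.47 on the arrays labelled BJELM, so the highest and the lowest value came from the same line. Its difference between lines therefore had wide intervals, from -1.44 to 1.80 for BJELM against BJ.

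Among the feedback and stress effectors, VLDLR, a lipoprotein receptor that ATF4 induces, was the only gene called. It read 8.45 and 7.87 in BJ, 7.74 and 7.39 in BJEL, and 7.18 and 6.40 on the arrays labelled BJELM, and no 2 lines overlapped. The arrays labelled BJELM were lower than BJ by 1.37 ± 0.31 (log2 difference -1.37, limma adjusted p = 0.0195). Without BJ replicate 1 the difference was -1.08 and without BJELM replicate 2 it was -0.976, and in both cases the call was lost (limma adjusted p = 0.103 and 0.0589).

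CHAC1, an enzyme that breaks down glutathione, read 9.76 and 9.43 in BJ, 9.05 and 8.98 in BJEL, and 9.33 and 7.55 on the arrays labelled BJELM. DDIT4, an inhibitor of the growth kinase mTORC1, read 7.60 and 7.42, 7.78 and 7.36, and 9.21 and 7.87 in the same order. TRIB3, a pseudokinase that feeds back on ATF4, read 8.47 and 8.23, 8.54 and 8.13, and 9.06 and 8.18. For each of these 3 genes the 2 arrays labelled BJELM stood farther apart than the 2 arrays of the other lines. DDIT4 was higher on both arrays labelled BJELM than on the other 4, by 1.03 ± 0.41 over BJ, and did not pass (limma adjusted p = 0.126). Without BJELM replicate 2 it was called higher (1.70, limma adjusted p = 0.00501), as was DDIT3 (1.29, limma adjusted p = 0.0208), whereas without BJELM replicate 1 CHAC1 was called lower (-2.05, limma adjusted p = 0.00166). Against BJEL, DDIT4 was called higher without BJELM replicate 2 (1.64), and DDIT3 and CHAC1 were called lower without BJELM replicate 1 (-1.54 and -1.47). STC2, a secreted glycoprotein of the stress response, was -0.45 from BJ in BJEL and -0.73 from BJ on the arrays labelled BJELM and did not pass (limma adjusted p = 0.290 and 0.0794), although without BJ replicate 2 the second was called (-1.01).

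CTH was the only gene of the set called higher in any comparison. It encodes cystathionine gamma-lyase, which makes cysteine in the last step of transsulfuration. It read 6.38 and 6.49 in BJ, 7.27 and 6.88 in BJEL, and 8.38 and 8.005 on the arrays labelled BJELM, so the lines formed 3 separate levels. CTH was 3.38-fold higher on the arrays labelled BJELM than in BJ (log2 difference 1.76 ± 0.17, limma adjusted p = 0.00109), and this call held with any 1 array left out (1.57 to 1.94). Over BJEL the difference was 1.12 ± 0.17 (limma adjusted p = 0.0144), lost without BJEL replicate 2 (0.925) or BJELM replicate 1 (0.931). BJEL against BJ gave 0.64 ± 0.17, which was under 2-fold and did not pass the adjusted p either (limma adjusted p = 0.0542).

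ASNS, which makes asparagine and is a standard readout of ATF4, did not pass in any comparison. It read 8.71 and 8.59 in BJ, 8.80 and 8.74 in BJEL, and 8.96 and 8.26 on the arrays labelled BJELM, where 1 array was the highest and the other the lowest of the 6. Its differences were 0.12 ± 0.22, -0.037 ± 0.22 and -0.16 ± 0.22, and the 95% intervals of all 3 lay within 2-fold. The proline enzymes PYCR1 and ALDH18A1 had no difference past the test, and their log2 differences lay between -0.45 and 0.27.

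ALDH1L2, the mitochondrial enzyme that releases one-carbon units from folate while making NADPH, fell in both engineered lines. It read 9.86 and 9.79 in BJ, 8.67 and 8.39 in BJEL, and 8.66 and 7.96 on the arrays labelled BJELM, so BJ stood apart from the other 4 arrays. The difference from BJ was -1.30 ± 0.23 in BJEL (limma adjusted p = 0.0138) and -1.52 ± 0.23 on the arrays labelled BJELM (limma adjusted p = 0.00461). The second call held with any 1 array left out (-1.87 to -1.17), and the first was lost without any BJ or BJEL array (-1.44 to -1.15, limma adjusted p up to 0.0812).

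MTHFD2, the mitochondrial folate enzyme upstream of ALDH1L2, went the other way. It read 10.70 and 10.65 in BJ, 11.12 and 10.99 in BJEL, and 11.23 and 11.29 on the arrays labelled BJELM. The rise over BJ was 0.38 ± 0.089 in BJEL (limma adjusted p = 0.0338) and 0.59 ± 0.089 on the arrays labelled BJELM (limma adjusted p = 0.00464), both under 2-fold. PSPH, the last enzyme of serine synthesis, was 0.44 ± 0.11 higher on the arrays labelled BJELM than in BJ (limma adjusted p = 0.0256). A second probe set of each of these 2 genes did not pass in any comparison. The other 3 serine and one-carbon enzymes of the set, PHGDH, PSAT1 and SHMT2, had differences of -0.24 to 0.29 and passed in no comparison.

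**Figure D2:**
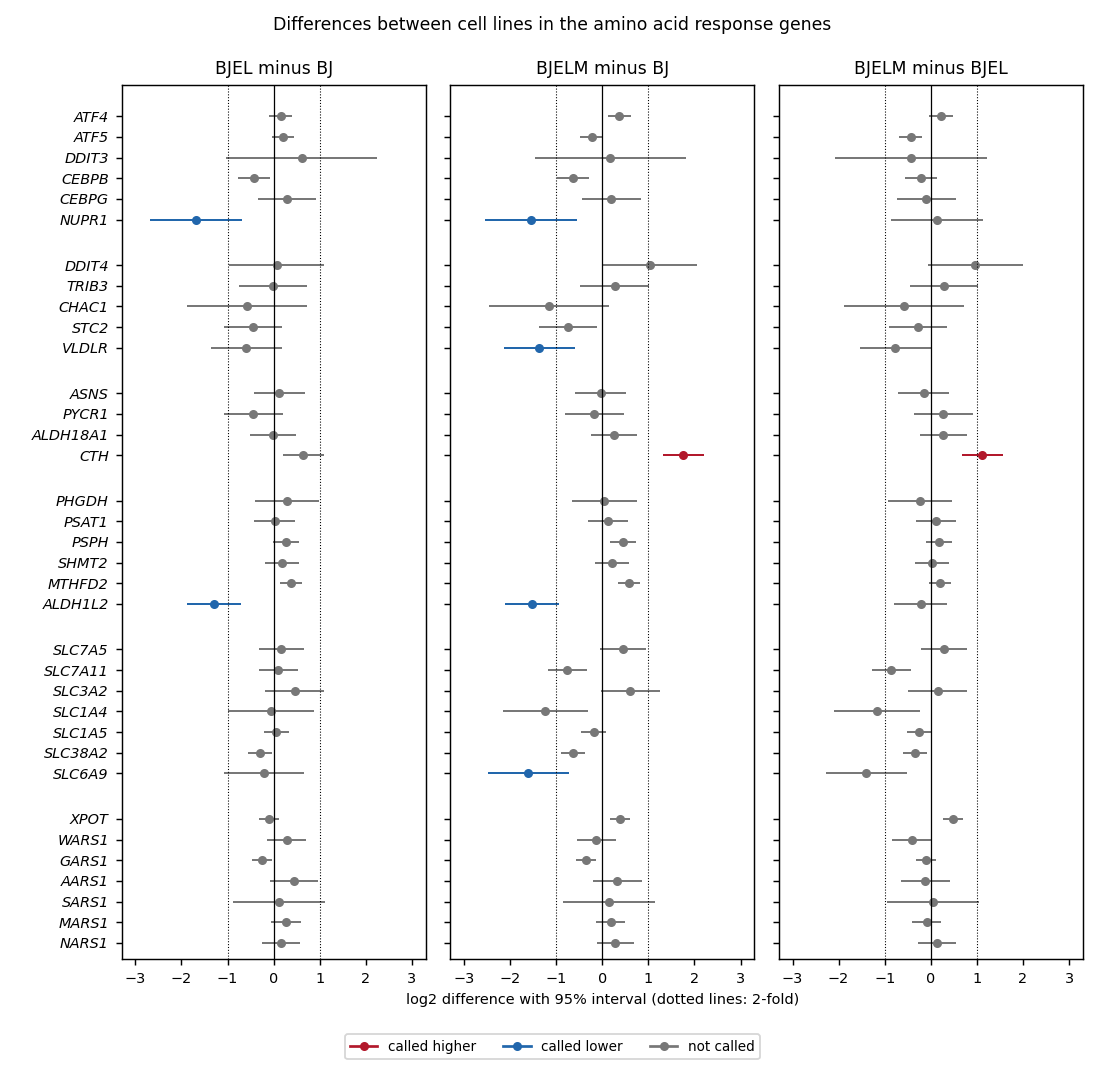
Log2 difference between lines for the 35 genes, with its 95% interval as a bar, in BJEL minus BJ, BJELM as labelled minus BJ, and BJELM as labelled minus BJEL. CTH is called higher in the second and the last panel, NUPR1 and ALDH1L2 are called lower in the first and second, and SLC6A9 and VLDLR are called lower in the second, while most grey bars end inside the dotted lines at 2-fold.

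Of the 7 amino acid transporters, 1 was called. SLC6A9, the glycine transporter GLYT1, read 9.14 and 8.56 in BJ, 9.08 and 8.21 in BJEL, and 7.54 and 6.96 on the arrays labelled BJELM, whose values were the 2 lowest. Against BJ the difference was -1.60 ± 0.35 (limma adjusted p = 0.0176), lost without BJ replicate 1 (-1.31, limma adjusted p = 0.0974) or BJELM replicate 2 (-1.31, limma adjusted p = 0.0758). Against BJEL it was -1.40 ± 0.35 and did not pass (limma adjusted p = 0.0574), although it was called after quantile normalization (-1.34, limma adjusted p = 0.0440), median centring or with a trended prior. It was also called when arrays of the same number were treated as paired (-1.40, limma adjusted p = 0.00024), a pairing that no label gives.

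SLC1A4, a carrier of serine, alanine and cysteine whose promoter holds the element, read 8.996 and 8.38 in BJ, 8.80 and 8.47 in BJEL, and 7.99 and 6.92 on the arrays labelled BJELM. It was lower there than on the other 4 arrays, by 1.23 ± 0.37 from BJ, and just missed the threshold (log2 difference -1.23, limma adjusted p = 0.0549). Quantile normalization (-1.27, limma adjusted p = 0.0349), median centring and a trended prior each brought it past, as did leaving out BJELM replicate 1 (-1.77), without which it was also called lower than in BJEL (-1.71). SLC7A11, the cystine and glutamate exchanger, read 10.88 and 10.58, 10.67 and 10.99, and 10.11 and 9.84 in BJ, BJEL and BJELM as labelled. It was lower on the arrays labelled BJELM than in BJ (-0.75 ± 0.17, limma adjusted p = 0.0186) and than in BJEL (-0.86 ± 0.17, limma adjusted p = 0.0282), under 2-fold in both. SLC38A2, which carries small neutral amino acids, fell from 12.71 and 12.81 in BJ to 12.23 and 12.04 on the arrays labelled BJELM (-0.63 ± 0.099, limma adjusted p = 0.00527).

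SLC7A5 and SLC3A2 form the heterodimer that carries large neutral amino acids such as leucine. Both had their highest signal on BJELM replicate 1, at 11.67 and 11.62, and differed from BJ by 0.45 ± 0.19 and 0.61 ± 0.25, which did not pass (limma adjusted p = 0.149 and 0.139). The glutamine carrier SLC1A5 had differences of -0.25 to 0.062, and none passed.

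In the tRNA group no gene was called, and an unadjusted limma p under 0.05 was reached by 1 of its 7 genes in BJEL against BJ, by 2 on the arrays labelled BJELM against BJ and by 1 there against BJEL. These are 14.3%, 28.6% and 14.3% of the group, below the shares of all genes given above. The adjusted t-test called 0 here, as it did over all genes. XPOT, the exportin that carries tRNA out of the nucleus, read 10.18 and 10.26 in BJ, 10.10 and 10.14 in BJEL, and 10.61 and 10.60 on the arrays labelled BJELM. It rose there by 0.39 ± 0.081 over BJ and by 0.48 ± 0.081 over BJEL (limma adjusted p = 0.0157 and 0.0182). GARS1, the glycine ligase, was 0.34 ± 0.081 lower there than in BJ (log2 difference -0.34, limma adjusted p = 0.0232). The other 5 ligases, AARS1, MARS1, NARS1, SARS1 and WARS1, which charge tRNA with alanine, methionine, asparagine, serine and tryptophan, passed in no comparison, with differences between -0.41 and 0.44.

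The absence of a call is bounded by the intervals. The 95% interval of the log2 difference lay wholly within 2-fold either way for 23 of the 35 genes in BJEL against BJ, and on the arrays labelled BJELM for 22 against BJ and 24 against BJEL, ATF4, ASNS, PHGDH and PSAT1 among them in all 3. These intervals are those of the probe set used for each gene. The second probe set of ATF4 had an SE of 0.39 and no interval was computed for it, so the bound does not cover it. For DDIT3, DDIT4, CHAC1 and SARS1 the intervals reached past 2-fold in all 3 comparisons without a call, so these arrays cannot show whether they differ by that much.

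The genes of the set differed between the 2 arrays of a line in a shared direction. The array numbered 1 was higher than the array numbered 2 for 29 of the 35 genes in BJ (82.9%, against 58.3% of all genes), 29 in BJEL (82.9%, against 51.7%) and 31 on the arrays labelled BJELM (88.6%, against 57.9%). In all 3 lines together this held for 25 of the 35 genes, against 29.2% of all genes. On the probe sets used, ATF4 itself was the only gene of the set that was higher on the array numbered 2 in all 3. The second probe sets of ATF4 and MTHFD2 were also higher on the array numbered 2 in all 3 lines. Those of SLC1A5 and PSPH were higher on the array numbered 1 in all 3. For MTHFD2, SLC1A5 and PSPH the direction thus did not match between probe sets in every line. The median difference between the 2 arrays was 0.237, 0.222 and 0.397 over the set and 0.0319, 0.00723 and 0.0391 over all genes. The labels do not say that a shared number marks a shared culture, day or batch.

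This spread was widest on the arrays labelled BJELM. There 5 genes of the set (14.3%) were at least 2-fold apart, against 0.472% of all genes. DDIT3 differed by 2.23, CHAC1 by 1.79, DDIT4 by 1.34, NUPR1 by 1.31 and SLC1A4 by 1.07, replicate 1 being the higher in each. In BJ and BJEL none of the 35 genes was 2-fold apart, against 0.212% and 0.364% of all genes. By role, the feedback and stress effectors had the largest median difference between the arrays labelled BJELM, 0.88, and the tRNA group the smallest, 0.225. Of the 19 measured endoplasmic reticulum chaperone and unfolded protein response genes, 16 were also higher on BJELM replicate 1, with a median of 0.331. The same direction held for 17 of them in BJ (median 0.171) and 13 in BJEL (median 0.0479). On the arrays labelled BJELM, HERPUD1, a protein of endoplasmic reticulum quality control, read 11.17 and 9.46, and DNAJB9, a co-chaperone of that compartment, read 7.65 and 6.56. Of the 12 fibroblast markers, 11 were higher on BJELM replicate 1, with a median of 0.416, and the matrix gene DCN read 6.98 and 5.40 there. In BJ all 12 were higher on replicate 1 (median 0.0854) and in BJEL 7 were (median 0.0407). The part of culture, RNA or array in these differences was not tested.

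**Figure D3:**
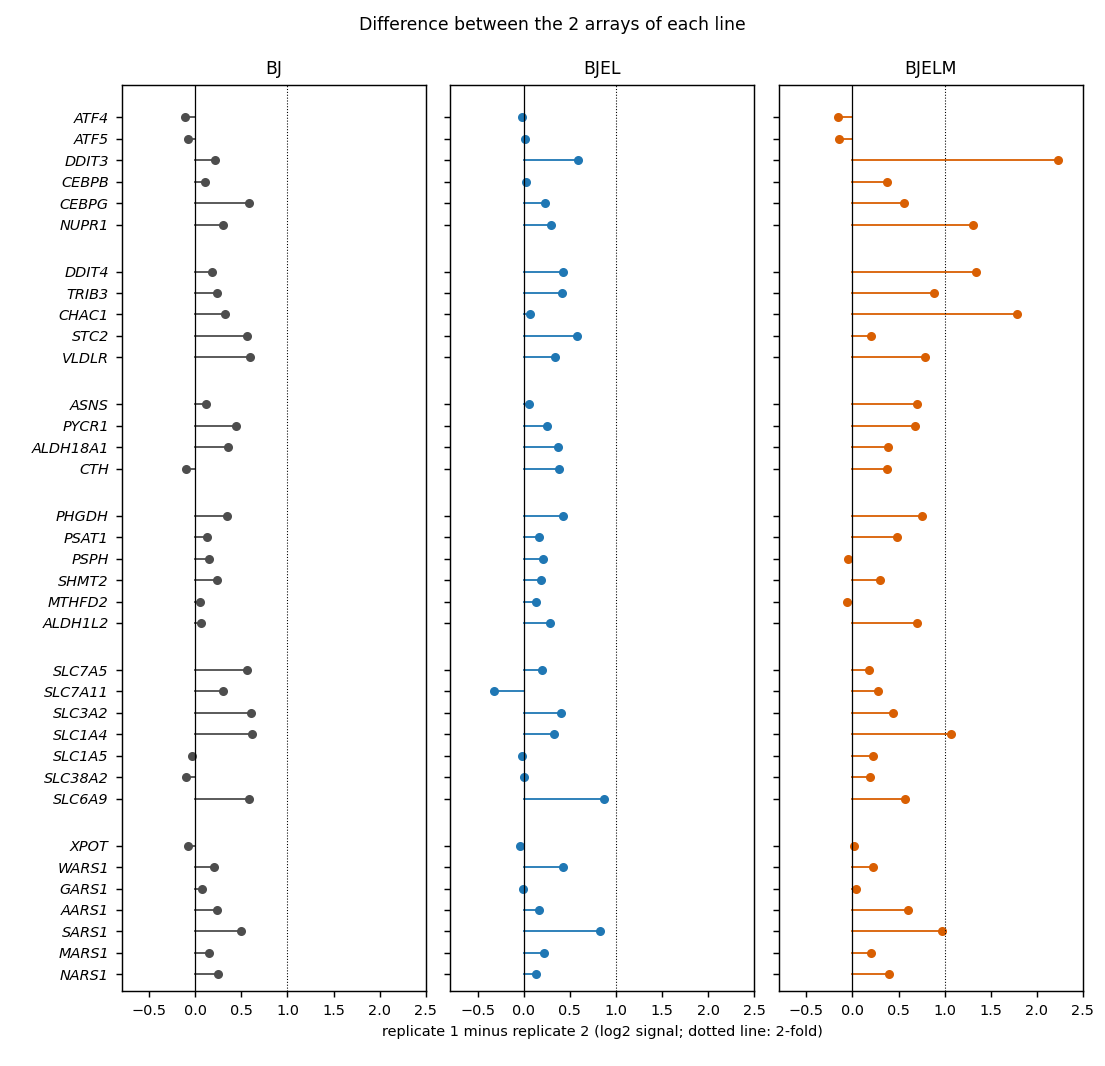
Log2 signal on the array numbered 1 minus that on the array numbered 2 for the 35 genes, in BJ, BJEL and BJELM as labelled. Most lines point to the right in each panel, and DDIT3, CHAC1, DDIT4, NUPR1 and SLC1A4 pass the dotted line at 2-fold in the BJELM panel only.

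Upstream of ATF4, the 18 genes of the eIF2 kinases, eIF2, eIF2B and the eIF2 phosphatase were all measured, and 1 was called (5.56%). It was called higher in BJEL against BJ, beside 2.89% of all genes, and lower in BJELM against BJEL, beside 1.76%. EIF2AK2, the kinase PKR that senses double-stranded RNA, read 10.48 and 10.27 in BJ, 11.92 and 11.52 in BJEL, and 10.44 and 10.33 on the arrays labelled BJELM. It was 1.34 ± 0.15 higher in BJEL than in BJ (limma adjusted p = 0.00315) and 1.34 ± 0.15 lower on the arrays labelled BJELM than in BJEL (log2 difference -1.34, limma adjusted p = 0.00617). Both calls held with any 1 array left out. Below 2-fold, 6 genes passed upward and 1 downward on the arrays labelled BJELM against BJ, which is 33.3% and 5.56% of the list beside 11.1% and 8.36% of all genes. Among them were EIF2S1, the phosphorylated subunit of eIF2 (0.70, limma adjusted p = 0.0027), and EIF2B1 and EIF2B2, subunits of its exchange factor (0.63 and 0.82, limma adjusted p = 0.0028 and 0.0144). EIF2AK4, the kinase GCN2 that senses uncharged tRNA, read 10.71 and 10.65, 10.22 and 10.37, and 10.18 and 10.26 in the same order of lines. It was the gene that passed downward (-0.47, limma adjusted p = 0.0128). The list's median differences were 0.22, 0.21 and 0.040.

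Downstream, 19 of 20 other genes known to be induced by ATF4 were measured, and their calls ran both ways. In BJEL 1 was called higher and 1 lower than in BJ (5.26% each, beside 2.89% and 2.29% of all genes). On the arrays labelled BJELM 1 was higher and 2 were lower than in BJ (5.26% and 10.5%, beside 4.09% and 4.7%). There 1 was lower than in BJEL (5.26%, beside 1.76%). PMAIP1, the pro-apoptotic protein NOXA, rose from 7.43 and 7.497 in BJ to 10.33 and 9.64 in BJEL and stood at 9.01 and 8.69 on the arrays labelled BJELM. Those are rises of 2.52 and 1.39 over BJ, which held with any 1 array left out. The call for the fall from BJEL (-1.13) was kept without BJEL replicate 2 and lost with any other array left out (limma adjusted p up to 0.125). GDF15, a secreted stress hormone, fell from 9.43 and 9.31 in BJ to 7.83 and 7.46 in BJEL and to 8.21 and 7.09 on the arrays labelled BJELM (-1.73 and -1.72). In BJEL that call was lost without any BJ or BJEL array (limma adjusted p up to 0.111), and on the arrays labelled BJELM it was lost without either BJ array (limma adjusted p up to 0.0717). HMOX1, the haem-degrading enzyme, was called only on the arrays labelled BJELM against BJ (-1.08), a call lost without BJ replicate 1 or BJELM replicate 2 (-0.906 and -0.840).

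The 19 endoplasmic reticulum and unfolded protein response genes had 0 calls by limma in the 3 comparisons. The adjusted t-test also called 0, as it did over all genes. At an unadjusted limma p under 0.05 there were 1, 8 and 4 (5.26%, 42.1% and 21.1%, beside 30.6%, 37.3% and 25.4% of all genes). Below 2-fold, 6 passed on the arrays labelled BJELM against BJ, all downward, which is 31.6% beside 8.36% of all genes. These were CALR, PDIA6, DNAJC3, SEL1L, EDEM1 and ATF6, with differences from -0.85 (DNAJC3, a co-chaperone) to -0.39. HSPA5, the chaperone BiP, read between 12.35 and 12.72 on all 6 arrays. Leaving out 1 array could bring genes of this list past the call, downward, in both comparisons of the arrays labelled BJELM.

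Around the enzymes of the set, 15 of 18 other one-carbon, glycine and methionine cycle genes were measured. In BJEL against BJ 1 was called higher (6.67%, beside 2.89% of all genes). On the arrays labelled BJELM against BJ 4 were called higher (26.7%, beside 4.09%) and 0 lower (beside 4.7%). There 0 were called against BJEL, where 7 had an unadjusted limma p under 0.05 (46.7%, beside 25.4% of all genes). The adjusted t-test called 0, as it did over all genes. SHMT1, the cytosolic partner of SHMT2, read 6.67 and 6.78 in BJ, 7.83 and 7.82 in BJEL, and 8.09 and 7.98 on the arrays labelled BJELM, and rose in both lines over BJ (1.1025 and 1.31), calls that held with any 1 array left out. The other 3 were MTHFD1, the cytosolic folate enzyme (1.01), GLDC, the glycine decarboxylase of mitochondria (1.03), and AHCY, which clears S-adenosylhomocysteine (1.08). All 3 sat just above 2-fold, and the calls were lost without BJ replicate 1 (MTHFD1, 0.981), without BJ replicate 1 or BJELM replicate 2 (GLDC, down to 0.878) and without BJELM replicate 1 (AHCY, 0.870). Among 14 of 18 other amino acid synthesis and breakdown genes, ASS1, the arginine-making argininosuccinate synthase, fell in both lines against BJ (-2.20 and -2.19), and ARG2, the mitochondrial arginase that consumes arginine, rose in both (1.61 and 2.12). Each is 7.14% of the list, beside 2.29% and 4.7% of all genes called lower and 2.89% and 4.09% called higher. No other gene of that list was called, and all 4 calls held with any 1 array left out.

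The list of 20 amino acid transporters outside the set, all measured, held calls in every comparison. In BJEL against BJ 0 were called higher and 4 lower (20%), beside 2.89% and 2.29% of all genes. On the arrays labelled BJELM against BJ 4 were higher (20%) and 3 lower (15%), beside 4.09% and 4.7% of all genes. There 3 were higher (15%) and 0 lower against BJEL, beside 0.923% and 1.76% of all genes. SLC7A2, a carrier of cationic amino acids such as arginine, read 5.76 and 5.65 in BJ, 6.23 and 6.25 in BJEL, and 9.68 and 9.88 on the arrays labelled BJELM, a rise of 4.07 ± 0.10 over BJ. SLC6A15, a neutral amino acid carrier, read 4.90 and 4.91, 4.91 and 4.97, and 7.36 and 7.20. SLC6A6, the taurine carrier, fell from 10.94 and 10.67 in BJ to 8.53 and 8.69 in BJEL and stood at 8.93 and 8.96 on the arrays labelled BJELM. SLC7A8, a neutral amino acid exchanger that also pairs with SLC3A2, fell from 7.92 and 7.95 in BJ to 6.22 and 6.20 and then 6.30 and 6.34. SLC7A2 and SLC6A15 were thus high on the arrays labelled BJELM alone, whereas SLC6A6 and SLC7A8 separated BJ from both engineered lines. The calls of these 4 genes held with any 1 array left out.

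Of the other cytosolic tRNA ligases, 13 of 14 were measured, and KARS1, the lysine ligase, was the only one called (7.69%, beside 4.09% of all genes). It read 10.33 and 10.19 in BJ, 10.86 and 10.75 in BJEL, and 11.42 and 11.40 on the arrays labelled BJELM (1.15 over BJ). On those arrays against BJ, 6 other ligases of the list passed below 2-fold, all upward (46.2%, beside 11.1% of all genes), LARS1, the leucine ligase, by 0.94 (limma adjusted p = 0.00074), and 10 of 13 had an unadjusted limma p under 0.05 (76.9%, beside 37.3%). Of the mitochondrial ligases, 16 of 17 were measured. In the 3 comparisons, in the order above, limma called 0 of them, and the adjusted t-test called 0, as it did over all genes. By limma 3, 9 and 5 passed the adjusted p below 2-fold, all upward (18.8%, 56.2% and 31.2%, beside 7.5%, 11.1% and 3.61% of all genes). An unadjusted limma p under 0.05 was reached by 7, 11 and 8 (43.8%, 68.8% and 50%, beside 30.6%, 37.3% and 25.4%). Their median differences were 0.26, 0.50 and 0.33.

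**Figure D4:**
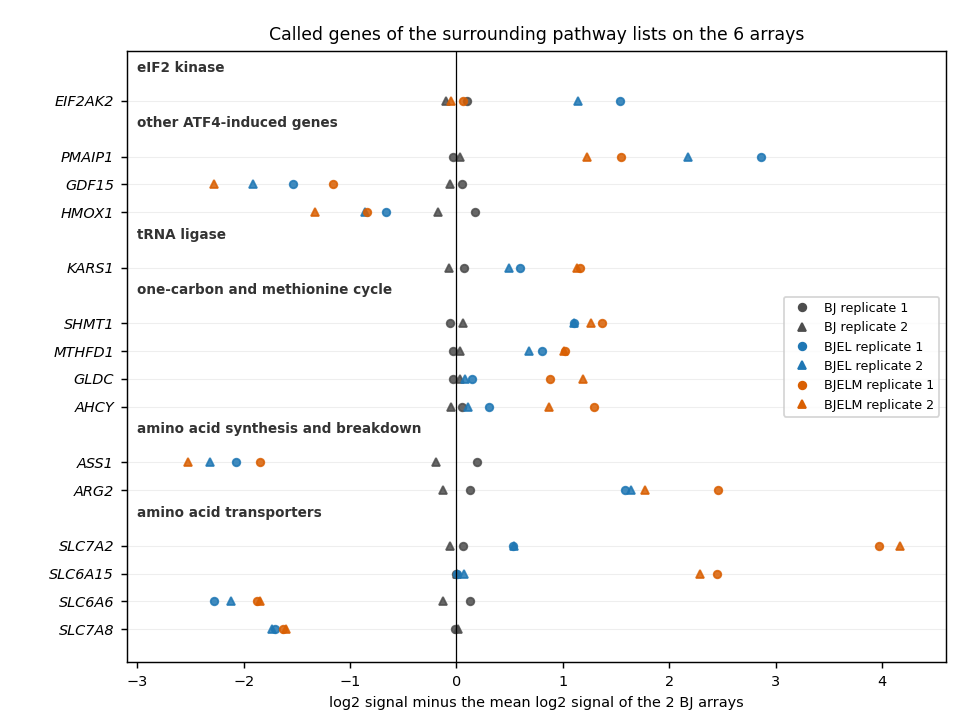
Called genes of the surrounding pathway lists, up to 4 per list, as the log2 signal on each array minus the mean of the 2 BJ arrays (x axis), with colour for the line as labelled and circles and triangles for replicates 1 and 2. SLC7A2 and SLC6A15 lie far to the right on the arrays labelled BJELM only, EIF2AK2 lies to the right in BJEL only, and SLC6A6, SLC7A8, ASS1 and GDF15 lie to the left in both engineered lines.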

How the data were processed

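Total RNA of BJ, BJEL and BJELM cells was hybridised to Affymetrix Human Gene 1.0 ST arrays, 2 per line. The authors made the deposited log2 signals by RMA in Expression Console 1.3.1 (per the labels and methods), which subtracts background, normalizes arrays to one distribution and summarises the probes of each set. RMA compresses differences of dim genes, and no counts or detection calls come with the values, so precision is limited by 2 arrays per line. No 2 arrays held identical values.

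Of 33297 probe sets, 19460 had 1 gene symbol in the array annotation, 1754 had several and 12083 had none listed. A gene was read from its single-symbol probe set with the highest mean signal, which gave 18417 genes, 18389 of them matched to RefSeq by Entrez identifier. With limma 3.58.1 in R 4.3.3, 1 model with a mean per line was fitted to the 6 arrays (residual degrees of freedom 3), and p-values were adjusted by Benjamini-Hochberg over all 18417 genes. SE are from this fit, with n = 2 arrays per line. The analysis was tested on simulated data with independent noise on each array. That setting lacks the differences that arrays of the same number share in the real data, so the test does not cover them.

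Groups came from the sample labels. The comparisons were BJEL with BJ, BJELM with BJ and BJELM with BJEL. Every gene of the set is accounted for, those called in any comparison on every array, and from each surrounding list at most 4 called genes with the largest differences are named, besides TERT and MYC. Other genes named from the lists or for the spread between arrays, and the mention of VIM, DCN, CD68, HSPA5, HERPUD1, DNAJB9, EIF2AK4 and the genes below 2-fold, were chosen after their values were seen. The genes and lists were chosen with earlier results of these data known. List genes without a value are not reported here. Alternatives covered the normalization, the prior, the arrays and lines fitted, the replicate block, filters on dim genes, the probe set rule, the minimum fold and the methods' t-test, here in its form for unequal variances.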

Additional observations from a re-analysis of the deposited data

How the results depend on the processing

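No difference of a called gene changed sign under any alternative. Leaving out 1 array changed which genes were called lower in BJEL against BJ. It also changed the calls in both directions in both BJELM comparisons. The counts thus rest on single arrays, BJELM replicates 1 and 2 above all. With the replicate block, which treats arrays of the same number as paired, BJELM against BJ gave 2 genes higher (DDIT4 added) and 6 lower (CHAC1 and SLC1A4 added), beside 4.14% and 4.78% of all genes. BJELM against BJEL gave 2 lower (SLC1A4 and SLC6A9), beside 2.01%. The differences between array 1 and array 2 correlated across genes at 0.448 between BJ and BJEL, 0.481 between BJ and BJELM and 0.553 between BJEL and BJELM. With 2 arrays per line and no label that ties them, what arrays of the same number share is not known. With no minimum fold the counts were 1 higher in BJEL against BJ, 5 higher and 8 lower in BJELM against BJ, and 2 higher and 2 lower in BJELM against BJEL, beside 10.4% of all genes in the first, 15.1% and 13.1% in the second, and 4.53% and 6.28% in the last. A minimum of 1.5-fold gave 2 higher and 7 lower in BJELM against BJ, beside 10.1% and 9.26% of all genes. In BJELM against BJEL that minimum gave 1 lower, beside 4.42% of all genes. The t-test for unequal variances without adjustment called 1 gene lower in BJEL against BJ (NUPR1), beside 1.27% of all genes, and 0 in the other comparisons. With adjustment it called 0 throughout, as it did over all genes. Testing every probe set left 1 lower in BJEL against BJ, beside 1.32% of all probe sets. Keeping genes at or above the median level removed CTH and so gave 0 higher in both BJELM comparisons. Of all genes kept, 6.7% were called higher against BJ and 1.28% against BJEL. This filter gave 1 lower in BJELM against BJEL (SLC6A9), beside 2.96% of the genes kept. Quantile normalization, median centring, a trended prior and keeping genes with a mean of at least 6 in 1 line each gave 1 lower in that comparison, beside 1.66% to 2.6% of all genes. Every other count, apart from those with 1 array left out, was within 1.5 times its main value. With 2 arrays per line and 3 residual degrees of freedom, a gene whose arrays differ as widely as DDIT3 could not be placed.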
